A study of Mus musculus with 16 samples.

Results

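Bile acid transport and its control by the farnesoid X receptor (FXR) were followed through 10 genes in mouse liver: Slc10a1, Abcb11, Abcb4, Abcc2, Abcc3, Abcc4, Nr1h4, Nr0b2, Fgfr4 and Klb. These 10 were a list of named genes, matched by symbol, out of 55471 counted gene identifiers, and all 10 passed the filter on low counts that left 17046 genes for testing. Liver RNA of 16 mice was sequenced. Of these, 4 were aged 102 weeks and belonged to the antibiotic group PAM II, 4 were of the same age and belonged to PAM I, 4 were of the same age and received no antibiotics (the aged controls), and 4 were young, at 12 weeks, and received none. The labels do not name the antibiotics, their dose or their timing, nor the strain, sex or cages of the mice, and since the description field of the 12-week mice contradicts their title and age fields by naming aged mice, the title and age were followed. The labels give 1 sample for each mouse and do not tie mice to litters or batches, so the p-values measure the spread between these 16 livers only.

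Bile acids are taken up from portal blood across the sinusoidal membrane of the hepatocyte, secreted into the bile canaliculus by ATP-driven pumps together with phospholipid, and returned by the intestine in an enterohepatic cycle. FXR, the nuclear receptor that binds bile acids, pairs with a retinoid X receptor to raise transcription of the canalicular pumps and of the small heterodimer partner SHP, a repressor of bile acid synthesis. In the intestine FXR raises FGF15, a hormone that reaches the liver and acts through the receptor FGFR4 with its co-receptor beta-Klotho. Gut bacteria modify bile acids, which is the link between antibiotics and this set of genes.

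Depth lay between 36968993 and 52090914 fragments assigned to genes per library, and the 10 genes were covered by at least 51 fragments in every library. Young mouse 1 stood apart with the lowest depth and with fragments in 20002 genes, against between 21886 and 23644 genes in the other livers, and it had the 51 fragments, for Abcc4. Levels are given as CPM, the count of a gene relative to the total of its library, scaled by the trimmed mean of M values (TMM), with SD over 4 mice. The hepatocyte markers summed to between 66867 and 126016 CPM in all 16 livers. A list of 10 skeletal muscle genes stood apart in 9 livers, where it summed to between 9.42 and 107 CPM, against between 0.723 and 2.30 CPM in the other 7. The 9 livers were PAM II mice 2, 3 and 4, PAM I mice 1 and 2, aged control 2, and young mice 1, 3 and 4.

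Set against the aged controls, no difference was detected in any of the 10 genes in either antibiotic group. Against the young livers, the basolateral exporter gene Abcc4 was higher in all 3 aged groups, and the bile salt export pump gene Abcb11 was lower in the PAM I livers. The other 8 genes passed the test in no comparison. A gene was called at an adjusted p under 0.05 by the quasi-likelihood test of edgeR, adjusted by Benjamini-Hochberg over all 17046 genes.

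**Figure D1:**
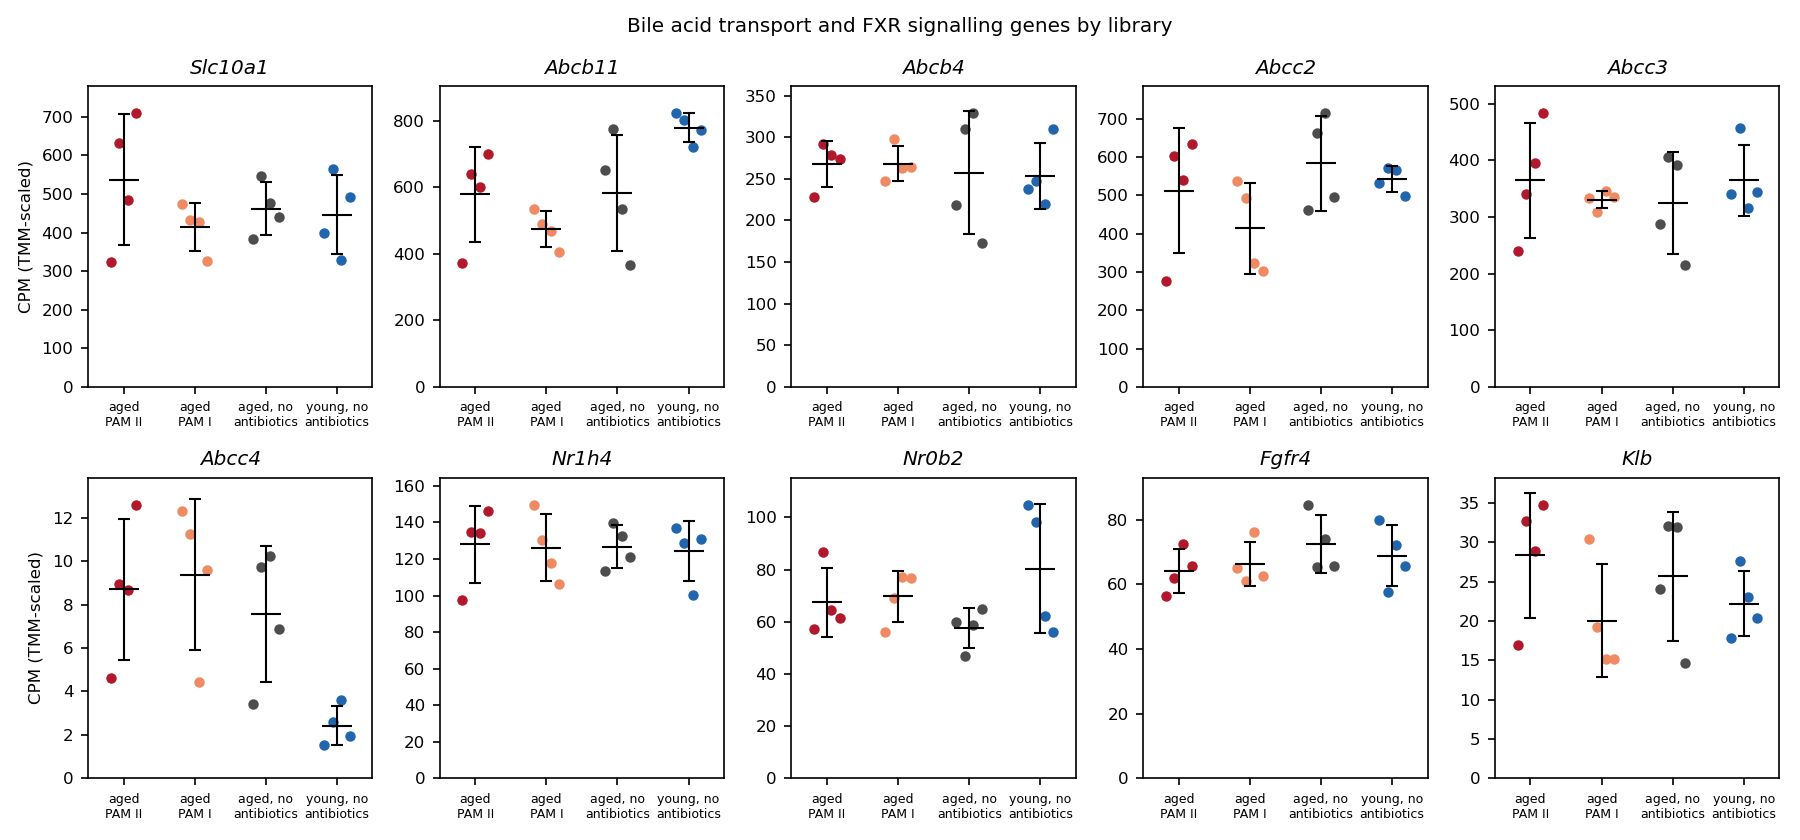
CPM (TMM-scaled, linear axis from 0) of each gene in each of the 16 livers, by group. Points are single mice, the long bar is the group mean and the error bar 1 SD (n = 4). Abcc4 lies between 1.56 and 3.62 CPM in young livers and reaches 12.6 CPM in a PAM II liver, while Nr1h4 has group means between 124 and 128 CPM.

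Per length of exon, the uptake carrier and the main canalicular pump dominated. Slc10a1 ranked first and Abcb11 second in CPM per kilobase of exon (FPKM) in each of the 16 livers, with means over all livers of 211 and 117 FPKM. Abcc2, Abcc3, Nr1h4 and Nr0b2 filled the next 4 ranks, with means between 54.9 and 60.8 FPKM. Abcb4 and Fgfr4 followed at 27.9 and 19.2 FPKM. Klb, at 5.29 FPKM, and Abcc4, at 1.099 FPKM, were the lowest in every liver. Abcc4 also varied most: its highest liver had 8.09 times the CPM of its lowest, whereas for the other 9 genes this ratio lay between 1.503 (Fgfr4) and 2.59 (Abcc2).

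**Figure D2:**
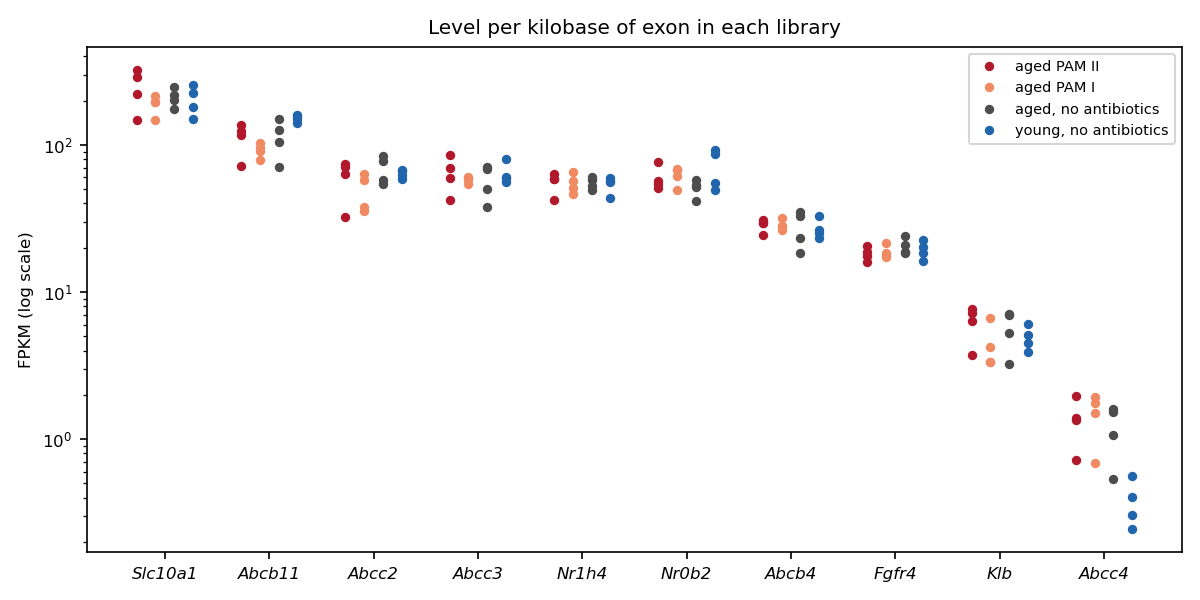
FPKM (log axis) of the 10 genes in each liver, ordered by their median FPKM over all livers, with the 4 groups side by side. Slc10a1 and Abcb11 are highest in each liver, and the young livers stand below the antibiotic groups for Abcc4.

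Abcc4 encodes MRP4, which exports conjugated bile acids and other organic anions across the basolateral membrane into blood. It lies at chr14:118482692-118706219 on the minus strand (GRCm38). In PAM II livers Abcc4 was at 4.64, 8.94, 8.66 and 12.6 CPM in mice 1 to 4. In PAM I livers it was at 12.3, 11.2, 4.42 and 9.60 CPM. In the aged controls it was at 3.41, 9.74, 10.2 and 6.86 CPM, and in young livers at 1.56, 2.57, 3.62 and 1.96 CPM. Every antibiotic-treated liver was above every young liver, and only 1 aged control, mouse 1, lay below the highest young liver. PAM II mouse 1, PAM I mouse 3 and aged control 1 stood below 5 CPM, apart from the rest of their groups.

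The group means of Abcc4 were 8.71 ± 3.25 CPM in PAM II, 9.38 ± 3.49 CPM in PAM I, 7.56 ± 3.14 CPM in aged controls and 2.43 ± 0.898 CPM in young livers (SD, n = 4 each). In the aged controls Abcc4 rose 3.10-fold over the young livers (95% interval 1.72 to 5.58), a log2 fold change of 1.63 ± 0.40 (SE; edgeR adjusted p = 0.0374). It rose 3.85-fold in PAM I livers (2.13 to 6.96), a log2 fold change of 1.95 ± 0.40 (adjusted p = 0.0108), and 3.57-fold in PAM II livers (1.98 to 6.44), a log2 fold change of 1.84 ± 0.40 (adjusted p = 0.0168). The 3 comparisons share the 4 young livers. Among all tested genes, 1.92% were called higher in aged controls than in young livers, 4.83% in PAM I livers and 3.17% in PAM II livers. All 4 libraries lay above all 4 young libraries for 9.16% of genes in PAM I and 8.17% in PAM II.

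The PAM I call held under each of the 16 alternatives run, with adjusted p between 5.09e-05 and 0.0409. The PAM II call was lost without young mouse 1 (adjusted p = 0.0564) or young mouse 4 (0.0623), and without aged control 4 and young 1 together (0.0569). The call in aged controls was lost without aged control 2, 3 or 4 or without young mouse 1, 2 or 4, with adjusted p between 0.0610 and 0.123, while the log2 fold change in these and the other left-out fits stayed between 1.46 and 1.89. It was also lost with no filter on low counts (adjusted p = 0.0630), in limma voom (0.0997), with the 2 groups alone (0.0675) and without aged control 4 and young 1 together (0.173). With the muscle list as a covariate the log2 fold changes against young livers were 1.68 in PAM II, 1.92 in PAM I and 1.83 in aged controls, and all 3 were called (adjusted p = 0.0197, 0.00880 and 0.0324). Bile duct markers, whose cells also carry exporters, summed to between 103 and 269 CPM in PAM II, 97.8 and 202 CPM in PAM I, 122 and 203 CPM in aged controls and 84.9 and 121 CPM in young livers. Their part in the Abcc4 result was not tested. In whole liver, more cells of one type and more RNA per cell cannot be told apart.

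Abcb11 encodes the bile salt export pump (BSEP), which drives bile salts into the canaliculus, and lies at chr2:69238282-69342616 on the minus strand. It was at 372, 638, 602 and 701 CPM in PAM II livers and at 533, 490, 467 and 405 CPM in PAM I livers. In the aged controls it was at 650, 776, 534 and 366 CPM, and in young livers at 822, 802, 722 and 771 CPM. All 8 antibiotic-treated livers were below all 4 young livers, while aged control 2 lay inside the young range. The young livers were also the most alike, with a coefficient of variation of 5.604%, against 24.8% in PAM II, 11.2% in PAM I and 30.0% in aged controls.

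The means of Abcb11 were 578 ± 144 CPM in PAM II, 474 ± 53.2 CPM in PAM I, 582 ± 174 CPM in aged controls and 779 ± 43.7 CPM in young livers (SD, n = 4 each). Abcb11 fell in PAM I livers to 0.608 of the young level (95% interval 0.447 to 0.828), a log2 fold change of -0.72 ± 0.21 (SE; edgeR adjusted p = 0.0468). Of all tested genes 3.38% were called lower in this comparison, and 7.71% had all 4 PAM I libraries below all 4 young ones. The call was lost with any 1 of the 8 livers left out, at adjusted p between 0.0515 and 0.141, and with no filter on low counts (0.0648), while the log2 fold change in the left-out fits stayed between -0.80 and -0.66. In PAM II livers the log2 fold change against young was -0.43 (adjusted p = 0.235), and 6.14% of genes had all 4 PAM II libraries below the young ones. In aged controls it was -0.42 (adjusted p = 0.288). The difference between PAM I and the aged controls was -0.30 (adjusted p = 0.674), with a 95% interval of -0.74 to 0.15, so a lower level in PAM I than in aged controls was not detected. The 8 hepatocyte identity genes, of which Abcb11 is not one, had median log2 fold changes against young of -0.46 in PAM II, -0.31 in PAM I and -0.38 in aged controls, and 1 of them, Serpina1a, whose near-identical copies can share its reads, was called lower in each. The 6 Kupffer cell markers had medians of 1.22, 1.43 and 0.65 in that order, with Cd5l called higher in PAM II and Vsig4 in PAM I. Kupffer cell markers summed to between 241 and 954 CPM in PAM II, 171 and 750 CPM in PAM I, 121 and 517 CPM in aged controls and 152 and 207 CPM in young livers. The part of these shifts in the Abcb11 result was not tested.

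The promoters of these 2 genes are shown because they are the genes called, as the 100 bases before the transcription start in RefSeq (GRCm38.p6), 5′ to 3′ on the gene's strand. Capitals mark matches to 2 motifs, searched on both strands. The first is AGGTCANTGACCT, an inverted repeat with 1 base between its arms (IR-1) of the kind that FXR with a retinoid X receptor binds, and 1 differing letter was allowed. The second is TGACNNNGC, the core of the antioxidant response element that NRF2 binds, with no differing letter. Abcc4 has 2 listed starts, and no capitals overlap.
Abcb11, chr2:69342617-69342716, minus strand: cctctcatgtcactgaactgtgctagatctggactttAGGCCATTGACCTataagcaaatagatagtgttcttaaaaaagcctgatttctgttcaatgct
Abcc4, outer start, chr14:118706220-118706319, minus strand: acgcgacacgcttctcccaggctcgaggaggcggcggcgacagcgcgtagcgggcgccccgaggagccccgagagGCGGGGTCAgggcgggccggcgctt
Abcc4, inner start, chr14:118676932-118677031, minus strand: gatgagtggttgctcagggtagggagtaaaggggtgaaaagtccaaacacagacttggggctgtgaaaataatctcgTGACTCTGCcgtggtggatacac

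In the Abcb11 promoter the capitals are an IR-1 match with 1 differing letter, from base -63 to base -51. Such a match was in 27 of the 32851 RefSeq promoter windows of 300 bases, 0.0822%, and Abcb11 was the only one of the 9 genes found in that table to hold it. In Abcc4 the capitals are antioxidant response element cores, on the opposite strand at the outer start and on the gene's strand at the inner start. That shorter motif was in 12.4% of all windows, and also in the windows of Abcc2 and Klb. A match of letters is a description and does not show that a factor binds there.

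The remaining canalicular exporters were Abcb4 and Abcc2. Abcb4 encodes MDR2, the flippase that supplies phosphatidylcholine to bile, and averaged 268 ± 27.4 CPM in PAM II, 268 ± 21.2 CPM in PAM I, 257 ± 74.1 CPM in aged controls and 253 ± 39.3 CPM in young livers. Its log2 fold changes against young lay between 0.02 and 0.08. On the same strand Abcb4 overlaps the gene model Gm17936, which held 2417 fragments over the 16 libraries, so its count is less certain than the others.

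Abcc2 encodes MRP2, the canalicular exporter of conjugated bilirubin and of glutathione and glucuronide conjugates. It was at 276, 602, 539 and 634 CPM in PAM II, 537, 494, 323 and 302 CPM in PAM I, 462, 664, 714 and 496 CPM in aged controls, and 532, 573, 568 and 499 CPM in young livers. PAM I mice 3 and 4 and PAM II mouse 1 were below every other liver. PAM I averaged 414 ± 119 CPM and the aged controls 584 ± 124 CPM, a log2 fold change of -0.50 ± 0.24 (SE) that did not pass (edgeR adjusted p = 0.541). The 3 low livers had between 1.70 and 2.30 CPM of the muscle list, against between 21.1 and 103 CPM in the other 5 antibiotic-treated livers. Among untreated livers, aged controls 1, 3 and 4 and young mouse 2 also had low muscle sums, between 0.723 and 1.92 CPM. Their Abcc2 lay between 462 and 714 CPM. In the remaining untreated livers, aged control 2 and young mice 1, 3 and 4, it lay between 499 and 664 CPM. With group means taken out, the Pearson r of Abcc2 with the muscle list was 0.66 over 16 livers. With the muscle list as a covariate the log2 fold change of Abcc2 between PAM I and aged controls was -0.72. The part of the muscle transcripts in the levels of Abcc2 was not tested beyond this.

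Slc10a1 encodes NTCP, the sodium-dependent carrier that takes up bile acids from portal blood. It ranged from 324 to 709 CPM in PAM II, from 326 to 474 CPM in PAM I, from 383 to 547 CPM in aged controls and from 330 to 564 CPM in young livers. The groups overlapped throughout, and the log2 fold changes against young were 0.27 in PAM II, -0.10 in PAM I and 0.05 in aged controls. Abcc3 encodes MRP3, the more abundant of the 2 basolateral exporters, and averaged 365 ± 102 CPM in PAM II, 331 ± 15.5 CPM in PAM I, 325 ± 89.6 CPM in aged controls and 364 ± 62.8 CPM in young livers. Its log2 fold changes against young, between -0.17 and 0.00, were not called. Per length, Abcc3 exceeded Abcc4 by 48.7 ± 7.30 times in PAM II, 47.0 ± 27.4 times in PAM I, 54.8 ± 26.9 times in aged controls and 185 ± 62.1 times in young livers, as a mean of FPKM ratios. This ratio moves with the level of Abcc4 and was not tested.

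Nr1h4 is the gene of FXR itself. It averaged 128 ± 21.1 CPM in PAM II, 126 ± 18.4 CPM in PAM I, 127 ± 11.7 CPM in aged controls and 124 ± 16.3 CPM in young livers. The 95% intervals of its log2 fold changes against young reached from -0.28 to 0.35.

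Nr0b2 encodes SHP, a direct target of FXR. It was at 57.4, 86.7, 64.4 and 61.3 CPM in PAM II, 56.2, 69.3, 77.1 and 76.6 CPM in PAM I, 60.0, 46.8, 58.8 and 64.9 CPM in aged controls, and 105, 98.3, 62.2 and 56.2 CPM in young livers. The young livers split, with mice 1 and 2 above every aged liver and mice 3 and 4 among them. The aged controls averaged 57.6 ± 7.69 CPM and the young livers 80.4 ± 24.7 CPM, a log2 fold change of -0.48 ± 0.20 (SE) that did not pass (edgeR adjusted p = 0.2003). The unadjusted p of Nr0b2 in that fit was 0.0277. An unadjusted p under 0.05 was reached by 19.0% of all genes in the same comparison.

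Fgfr4 and Klb encode the receptor for FGF15 and its co-receptor beta-Klotho. Fgfr4 averaged 64.1 ± 6.85 CPM in PAM II, 66.2 ± 6.87 CPM in PAM I, 72.4 ± 9.03 CPM in aged controls and 68.8 ± 9.46 CPM in young livers. Klb was at 17.0, 32.7, 28.8 and 34.8 CPM in PAM II, 30.5, 19.2, 15.2 and 15.2 CPM in PAM I, 24.1, 32.0, 31.9 and 14.7 CPM in aged controls, and 17.9, 27.6, 23.0 and 20.3 CPM in young livers. The groups of Klb overlapped, with 1 high liver in PAM I and 1 low liver in PAM II. Klb had the widest gap between the antibiotic groups, a log2 fold change of 0.50 ± 0.28 (SE) for PAM II over PAM I (edgeR adjusted p = 0.880). Fgf15 itself, made in the ileum and named here for its role, had 0 fragments in all 16 livers. A single count of 0 allows up to 3 fragments in that library by counting error alone, and 16 such counts together allow fewer per library.

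Across the antibiotic comparisons, 0 of the 10 genes were called, beside 0 (0%) of all genes, and 0 of the 10 had an unadjusted p under 0.05 in edgeR with all livers. That count was 3 of the 10 for PAM I against aged controls without aged control 4 (Abcb11, Abcc2 and Klb lower). Over all genes in that fit it was 3027 of 17286. For PAM II against PAM I without PAM II mouse 1 it was 4 of the 10 (Slc10a1, Abcb11, Abcc2 and Klb higher), beside 1687 of 17300 genes. For PAM I against aged controls with the muscle covariate it was 2 of the 10 (Abcb11 and Abcc2 lower), beside 2307 of 17046. In limma voom it was 3 of the 10 for PAM II against PAM I, beside 2936 of 17046. There it was 2 of the 10 for PAM I against aged controls, beside 3257. None of the 10 was called in these fits. In the other edgeR fits the count was 0 to 2. For PAM II against aged controls the log2 fold changes of the 10 genes lay between -0.19 and 0.23, with 95% intervals inside -0.70 to 1.01. For PAM I against aged controls they lay between -0.50 and 0.31, with intervals inside -1.01 to 1.12. For PAM II against PAM I they lay between -0.11 and 0.50, with intervals inside -0.92 to 1.09. The lowest adjusted p of the 10 genes was 0.541, for Abcc2 in PAM I. Over all genes, 465 (2.73%), 1602 (9.4%) and 778 (4.56%) had an unadjusted p under 0.05 in these 3 comparisons, and DESeq2 called 0, 15 and 0. Single livers moved these counts by more than 1.5 times. For PAM II against aged controls the count was 933 without aged control 4. For PAM I against aged controls it was 3027 without aged control 4, 1025 without aged control 3 and 616 without PAM I mouse 4. For PAM II against PAM I it was 1687 without PAM II mouse 1, 494 without PAM II mouse 3, 414 without PAM II mouse 4, 1330 without PAM I mouse 1, 411 without PAM I mouse 3 and 381 without PAM I mouse 4. With both antibiotic groups averaged against the aged controls, edgeR called 0 genes, 961 (5.64%) had an unadjusted p under 0.05, and DESeq2 called 0. Without aged control 4 that count was 2138, and without aged control 1 it was 638. The log2 fold changes of the 10 genes in that comparison lay between -0.34 (Abcc2) and 0.26 (Abcc4), with 95% intervals inside -0.78 to 0.97 and a lowest adjusted p of 0.895.

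Against young livers, 1 of the 10 genes was called in PAM II (Abcc4), 2 in PAM I (Abcc4 and Abcb11) and 1 in aged controls (Abcc4). The shares of all genes called in either direction were 5.19%, 8.22% and 3.23% in that order. The median log2 fold change of the 10 genes was 0.02 in PAM II, -0.12 in PAM I and 0.04 in aged controls, beside medians over all genes of -0.02, -0.02 and -0.01.

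**Figure D3:**
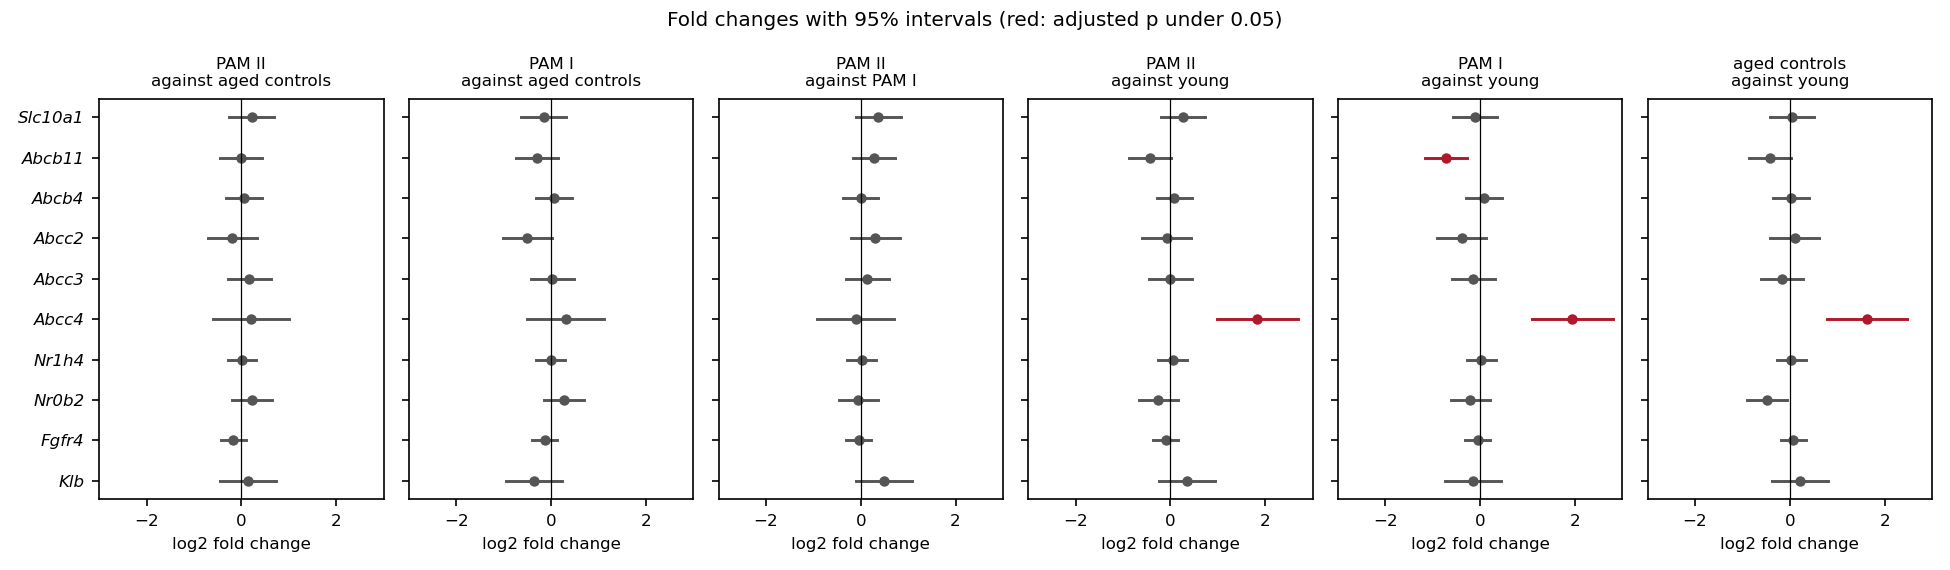
Log2 fold change (point) and 95% interval (line) of each gene in 6 comparisons, from the fit over all 16 libraries; red marks an adjusted p under 0.05. The intervals for Abcc4 lie above 0 in the 3 comparisons with young livers, from 0.79 at the lowest, and cross 0 in the 3 comparisons between aged groups.

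The neighbours of these genes in the pathway were described from lists. Many of their calls were lost with 1 liver left out, so the number of the 8 fits with 1 liver left out in which a call was kept is given. Of 15 other bile acid carriers, 14 were tested. Abcb1a, a multidrug exporter that sits in the canalicular membrane, rose in all 3 aged groups: it averaged 6.21 ± 1.73 CPM in PAM II, 4.36 ± 2.19 CPM in PAM I, 4.41 ± 1.22 CPM in aged controls and 1.63 ± 0.451 CPM in young livers, with log2 fold changes of 1.93, 1.42 and 1.44 (edgeR adjusted p = 0.00651, 0.0270 and 0.0403). The call was kept in 8 of 8 left-out fits in PAM II, 4 of 8 in PAM I and 0 of 8 in aged controls. Slco1a1, an organic anion carrier of the sinusoidal membrane, fell in PAM II livers to 13.3 ± 11.5 CPM, against 316 ± 50.03 CPM in young livers (adjusted p = 0.0307), a call kept in 3 of 8 left-out fits. Slco1a1 averaged 26.5 CPM in PAM I and 18.03 CPM in aged controls, which did not pass (adjusted p = 0.0528 and 0.0545). The other 12 carriers were called in no comparison.

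Among 24 FXR partners and regulators, of which 22 were tested, Rxrg, one of the retinoid X receptors, rose in all 3 aged groups, with log2 fold changes of 0.60 in PAM II, 0.59 in PAM I and 0.55 in aged controls (edgeR adjusted p = 0.0133, 0.0121 and 0.0282), calls kept in 8, 8 and 2 of 8 left-out fits. Its level was 8.20 ± 0.624 CPM in PAM II and 5.40 ± 0.682 CPM in young livers. Rxra, the main retinoid X receptor of the hepatocyte, was far more abundant, at 390 ± 27.1 CPM in PAM II, 341 ± 31.5 CPM in PAM I, 343 ± 91.4 CPM in aged controls and 395 ± 23.6 CPM in young livers, and was not called. Sirt1, a deacetylase that acts on FXR, fell in PAM I livers to 6.10 ± 1.25 CPM, against 9.32 ± 1.29 CPM in young livers (adjusted p = 0.0251), and the call was kept in 5 of 8 left-out fits.

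Of 21 FXR targets outside the 10 genes, 20 were tested. Osgin1, an oxidative stress response gene, fell in all 3 aged groups: it averaged 208 ± 30.5 CPM in PAM II, 267 ± 61.2 CPM in PAM I, 332 ± 41.6 CPM in aged controls and 581 ± 175 CPM in young livers, with log2 fold changes of -1.49, -1.12 and -0.81 (edgeR adjusted p = 0.00130, 0.00683 and 0.0496). The calls in PAM II and PAM I were kept in 8 of 8 left-out fits, and that in aged controls in 1 of 8. Fgf21, a fasting hormone of the liver, rose in PAM I livers to 16.2 ± 11.1 CPM, against 2.62 ± 1.06 CPM in young livers (adjusted p = 0.0144), kept in 8 of 8. In PAM II and in aged controls Fgf21 was not called against young livers, but it was among the 3 smallest p of this list. Obp2a, which encodes an odorant-binding lipocalin, fell in PAM II livers to 0.0472 ± 0.0530 CPM, against 1.30 ± 0.335 CPM in young livers (adjusted p = 0.0474), but the call was kept in 0 of 8 left-out fits (adjusted p between 0.0618 and 0.128). The PAM II level of Obp2a rests on very few fragments, and its SD exceeds its mean. The remaining 17 tested targets were not called in either direction, and the median log2 fold change of the list against young was 0.01 in PAM II, -0.18 in PAM I and -0.03 in aged controls.

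In the FGF15 axis of 19 genes, 17 were tested. Fgfr2, another FGF receptor, fell to 25.6 ± 0.803 CPM in PAM I and 29.1 ± 1.70 CPM in aged controls, against 40.4 ± 4.18 CPM in young livers (edgeR adjusted p = 0.00130 and 0.0146), kept in 8 and 7 of 8 left-out fits. Spry4, a feedback inhibitor of receptor tyrosine kinase signalling, fell in the same 2 groups to 4.52 ± 1.64 and 5.47 ± 1.13 CPM, against 12.4 ± 4.93 CPM in young livers (adjusted p = 0.0116 and 0.0465), kept in 8 and 1 of 8 left-out fits. In aged controls the log2 fold change of Spry4 was -1.17, and -0.66 and no longer called with the muscle covariate. Fgf21 is also on this list. In PAM II livers Fgfr2 averaged 32.1 CPM and Spry4 7.57 CPM, and neither was called (adjusted p = 0.0570 and 0.174). Whether PAM II differed here from the other aged groups was tested directly against each of them, and no gene was called.

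All 18 genes of bile acid synthesis were tested. Acnat2, an acyltransferase of the peroxisome, averaged 67.1 ± 13.5 CPM in PAM II, 68.8 ± 12.4 CPM in PAM I, 66.2 ± 15.4 CPM in aged controls and 13.97 ± 5.16 CPM in young livers, and rose in all 3 (edgeR adjusted p between 0.000182 and 0.000214), kept in every left-out fit. Cyp46a1, the cholesterol 24-hydroxylase known best from brain, also rose in all 3, with log2 fold changes of 2.63 in PAM II, 2.35 in PAM I and 2.43 in aged controls (adjusted p = 0.0171, 0.0237 and 0.0325), kept in 7, 4 and 2 of 8 left-out fits. Cyp7b1, the oxysterol 7-alpha-hydroxylase of the acidic pathway, fell in all 3, to 56.3 ± 17.4 CPM in PAM II, 69.7 ± 38.8 CPM in PAM I and 62.7 ± 18.1 CPM in aged controls, against 194 ± 101 CPM in young livers (adjusted p = 0.0197, 0.0354 and 0.0389), kept in 5, 3 and 2 of 8. Cyp27a1, which opens the acidic pathway, and Amacr, a racemase of side-chain shortening, fell in aged controls, with log2 fold changes of -0.71 and -0.51 (edgeR adjusted p = 0.0404 and 0.0363), kept in 1 and 3 of 8. Cyp7a1, the rate-limiting enzyme of the classical pathway and the gene that SHP and FGF15 signalling repress, was added for its role: it averaged 66.4 ± 32.8 CPM in PAM II, 55.1 ± 37.1 CPM in PAM I, 52.8 ± 16.9 CPM in aged controls and 56.2 ± 20.9 CPM in young livers, and was not called in any comparison. Cyp8b1, the sterol 12-alpha-hydroxylase, averaged 583 ± 165 CPM in PAM II, 583 ± 98.4 CPM in PAM I, 447 ± 164 CPM in aged controls and 569 ± 112 CPM in young livers and was not called either.

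Of the 13 genes of the constitutive androstane receptor (CAR) and NRF2 programmes, which induce exporters such as MRP4 in mice, Nqo1, an NRF2 target, rose in all 3 aged groups, to 11.8 ± 2.18 CPM in PAM II, 16.1 ± 3.10 CPM in PAM I and 12.6 ± 3.30 CPM in aged controls, against 5.98 ± 1.61 CPM in young livers (edgeR adjusted p = 0.0190, 0.00199 and 0.0155), kept in 5, 8 and 6 of 8 left-out fits. Srxn1, another NRF2 target, rose in PAM I (log2 fold change 0.84, adjusted p = 0.0117), kept in 8 of 8. Hmox1, haem oxygenase 1, had a log2 fold change of 1.78 in PAM II (adjusted p = 0.0478), kept in 1 of 8 left-out fits, and without PAM II mouse 1 it was 0.93 (adjusted p = 0.199). The other 10 genes were not called. The summed list had median CPM of 1623 in PAM II, 1587 in PAM I, 1590 in aged controls and 1601 in young livers. The part of this list in the Abcc4 result was not tested. Of 14 genes of the canalicular scaffold and its trafficking, Cgn, which encodes the tight junction protein cingulin, fell in PAM I to 39.7 ± 6.69 CPM, against 61.5 ± 12.6 CPM in young livers (adjusted p = 0.0420), kept in 2 of 8 left-out fits, and the other 13 were not called. None of the genes of these 7 lists was called in any antibiotic comparison.

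Lists outside the pathway moved too, but they were chosen with earlier results of these data known, so their counts are a description only. Of all tested genes, 3.17% were called higher than in young livers in PAM II, 4.83% in PAM I and 1.92% in aged controls. In either direction the shares were 5.19%, 8.22% and 3.23% in that order. Of 13 acute phase genes, 3 were called higher in PAM II, 4 in PAM I and 5 in aged controls than in young livers. They summed to between 3942 and 7886 CPM in PAM II, 4785 and 6562 CPM in PAM I, 4334 and 8843 CPM in aged controls and 4054 and 4119 CPM in young livers, so that the young livers lay inside the PAM II range. Of 12 tested female-biased liver genes, 10 were called higher in PAM II, 8 in PAM I and 8 in aged controls than in young livers, and they summed to between 146 and 525 CPM in PAM II, 67.1 and 506 CPM in PAM I, 142 and 245 CPM in aged controls and 5.12 and 10.98 CPM in young livers. Of 14 male-biased liver genes, 14 were called lower in PAM II, 11 in PAM I and 12 in aged controls. They summed to between 1290 and 2164 CPM in PAM II, 1308 and 5213 CPM in PAM I, 1691 and 3312 CPM in aged controls and 13801 and 28106 CPM in young livers. Slco1a1 and Cyp7b1, described above among the carriers and the synthesis genes, are on this male-biased list. The part of these lists in the results for Abcc4, Abcb11 and the pathway genes was not tested.

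Within groups, the pairs among 8 of the 10 genes had positive correlations over the livers, of a size that varied from pair to pair. With the 4 group means taken out of log2 CPM, the 28 pairs that leave out Nr0b2 and Fgfr4 had Pearson r between 0.28 and 0.86 over 16 livers, with a median of 0.65. This split was made after the values were seen. No background of r over pairs of other genes was taken, so whether these values are particular to these genes was not tested. The closest pairs were Slc10a1 with Nr1h4 (r = 0.86, Spearman rho = 0.73) and Abcc2 with Klb (r = 0.84, rho = 0.88). By rank, some pairs with Abcc4 were weak, with rho of 0.15 with Abcb11, 0.31 with Abcb4 and 0.31 with Nr1h4. The 17 pairs with Nr0b2 or Fgfr4 lay between -0.36 and 0.30, with a median of 0.00. The low ends were shared too: PAM II mouse 1 was the lowest of all 16 livers for Slc10a1, Abcc2, Nr1h4 and Fgfr4, and aged control 4 for Abcb11, Abcb4, Abcc3 and Klb. The values of a liver come from 1 library, so its depth, scaling and cell content are common to all 10 genes, and the r of the 10 genes with the muscle list ran from -0.23 (Nr0b2) to 0.70 (Nr1h4).

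**Figure D4:**
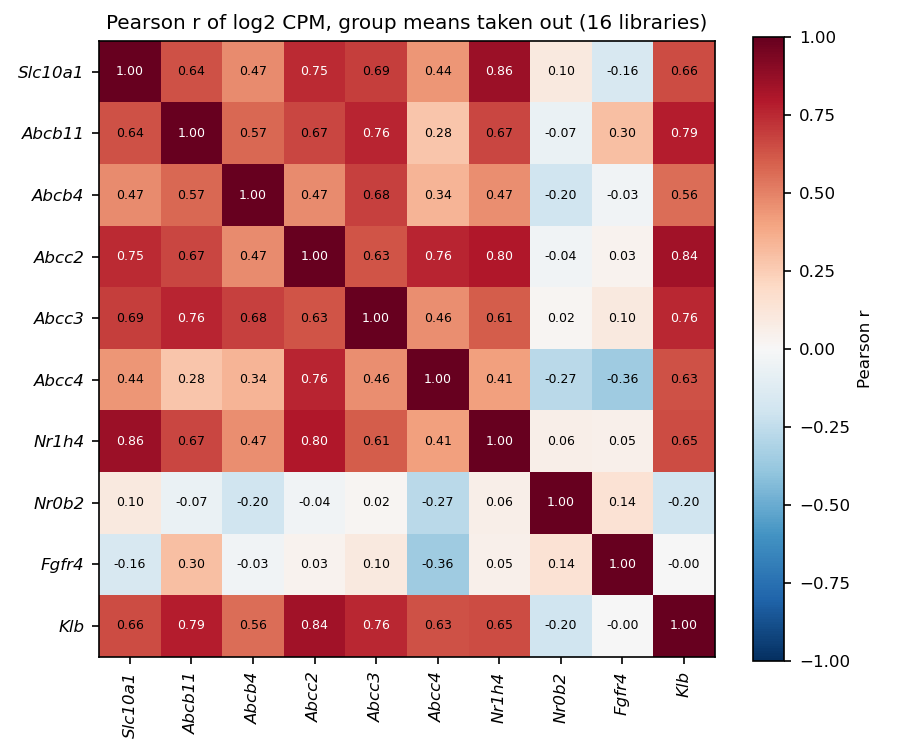
Pearson r between the 10 genes over 16 livers, on log2 CPM with the group means taken out; red is positive and blue negative. The rows of Nr0b2 and Fgfr4 stay between -0.36 and 0.30, and the other pairs between 0.28 and 0.86.

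By the same measure, the genes most like each of the 10 were sought among 10726 expressed genes. For Abcc4 they were Dcaf12l1 (r = 0.95), Mpv17l (0.90) and Gclc (0.90), which encodes a subunit of the enzyme limiting glutathione synthesis. Gclc averaged 392 ± 86.8 CPM in PAM II, 414 ± 107 CPM in PAM I, 483 ± 139 CPM in aged controls and 493 ± 70.5 CPM in young livers, and was not called in any comparison. For Abcb11 the closest were Nbr1 (0.96), Rcan2 (0.93) and Fam149b (0.92). The closest to Abcc2 was Sepsecs (0.98), to Klb Hipk2 (0.98), to Abcc3 Dhx37 (0.95), to Abcb4 Ankrd40 (0.92), to Slc10a1 Tlr5 (0.90), to Nr1h4 Esrrg (0.89) and to Fgfr4 Atp13a1 (0.89).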

How the data were processed

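The authors deposited, for each library, a file of raw counts of fragments by gene. The submitters' processing notes name Trimmomatic 0.38 for reads, HISAT2 2.1.0 with build mm10, and featureCounts 1.5.0-p2. Per the file headers, the counts were summed over the exons of each gene, as fragments, with strand setting 1 and an Ensembl annotation of GRCm38. Symbols came from GENCODE M21 for 55144 of 55471 identifiers, and 327 had none. No row named anything other than a gene.

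The counts were fitted in 1 model over 16 libraries with edgeR 4.0.16 in R 4.3.3 (TMM scaling, filterByExpr, robust quasi-likelihood test, two-sided). The biological coefficient of variation was 27.3%. In counts simulated for the comparison of aged controls with young livers over 17046 genes, the test recovered 61 of 100 genes changed by 1 on the log2 scale and 95 of 100 changed by 2, with 11 false calls. FPKM divides scaled CPM by exonic length. Log2 CPM used a prior count of 2. DESeq2 1.42.0, limma 3.58.1 and the other alternatives are given at the end.

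The 10 genes and all lists were chosen with earlier results of these data known. Beyond the 10, a listed gene was named where it was called or among the 3 smallest p of its list in a comparison, and the 3 genes most like each of the 10 were taken by Pearson r, leaving out predicted models and pseudogenes. Those of Nr0b2 are not reported here. Motif positions are counted from the transcription start, with base -1 just before it.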

Additional observations from a re-analysis of the deposited data

How the results depend on the processing

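No paired analysis was possible because the labels give no replicate numbers that pair mice across groups. The alternatives were RLE scaling, no filter or a stricter filter on low counts, DESeq2, limma voom with quality weights, a fit to the groups compared alone, the muscle list as a covariate, aged control 4 and young 1 left out together, and each liver left out in turn. Voom changed the test and the weights at once, and fits to fewer livers also refiltered the genes. Over 104 log2 fold changes of single genes, 1407 of 1704 values under alternatives kept direction and call, 180 lost a call, 0 gained one and 117 changed sign. The 35 fold changes that changed sign were all uncalled, at most 0.26 in size.

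Genes called against young livers were 1860 (DESeq2) and 1552 (voom) in PAM II, against 884. They were 2629 (DESeq2), 2627 (voom) and 896 (no filter) in PAM I, against 1401, and 1343 (DESeq2), 198 (groups compared alone), 295 (muscle covariate) and 155 (aged control 4 and young 1 left out) in aged controls, against 551. DESeq2 called 15 genes in PAM I against aged controls. With 1 liver left out these counts ran from 373 to 925 in PAM II, 544 to 1529 in PAM I and 199 to 573 in aged controls. Of the 10 genes, 0 were called in aged controls against young with no filter, in voom, with the groups alone and without aged control 4 and young 1; 0 in PAM II without those 2; 1 in PAM I with no filter; and with 1 liver left out 0 to 1 in PAM II, 1 in PAM I and 0 to 1 in aged controls. The causes were not tested.

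Changes of sign under the muscle covariate were, for PAM II against aged controls, Abcb4 -0.032, Abcc4 -0.15, Nr1h4 -0.17 and Klb -0.092; for PAM I against aged controls, Abcc3 -0.018; for PAM II against PAM I, Abcb4 -0.039 and Nr1h4 -0.050; for both antibiotic groups against aged controls, Slc10a1 -0.10, Abcb4 -0.012, Abcc4 -0.025 and Nr1h4 -0.15; for PAM II against young, Abcc3 -0.035 and Nr1h4 -0.0020. Without aged control 4 and young 1 they were, for PAM II against aged controls, Abcb4 -0.10, Nr1h4 -0.013 and Klb -0.058; for PAM I against aged controls, Abcb4 -0.11 and Abcc3 -0.15; for both antibiotic groups against aged controls, Slc10a1 -0.0034, Abcb4 -0.10, Abcc3 -0.070 and Nr1h4 -0.030; for PAM II against young, Abcc3 -0.037; for PAM I against young, Fgfr4 0.0055. In voom they were, for PAM I against aged controls, Abcb4 -0.0086 and Abcc3 -0.11; for PAM II against PAM I, Nr0b2 0.023 and Fgfr4 0.055; for PAM II against young, Abcc2 0.060, Nr0b2 0.0089 and Fgfr4 0.019. Nr1h4 in both antibiotic groups against aged controls, near 0, also changed sign to -0.0030 with RLE scaling, -0.0050 with the stricter filter, -0.0030 in DESeq2 and -0.0039 with the groups compared alone.

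With 1 liver left out, log2 fold changes that changed sign ran, for PAM II against aged controls, from -0.18 to 0.16 (Abcb11), -0.10 to 0.19 (Abcb4), -0.31 to 0.017 (Abcc2), -0.0074 to 0.32 (Abcc3), -0.044 to 0.41 (Abcc4), -0.062 to 0.12 (Nr1h4) and -0.058 to 0.32 (Klb). For PAM I against aged controls they ran from -0.11 to 0.18 (Abcb4), -0.15 to 0.14 (Abcc3) and -0.12 to 0.054 (Nr1h4). For PAM II against PAM I they ran from -0.032 to 0.085 (Abcb4), -0.014 to 0.31 (Abcc3), -0.33 to 0.12 (Abcc4), -0.043 to 0.15 (Nr1h4), -0.18 to 0.037 (Nr0b2) and -0.10 to 0.041 (Fgfr4). For both antibiotic groups against aged controls they ran from -0.063 to 0.12 (Slc10a1), -0.33 to 0.013 (Abcb11), -0.10 to 0.18 (Abcb4), -0.070 to 0.21 (Abcc3), -0.055 to 0.051 (Nr1h4) and -0.31 to 0.011 (Klb). For PAM II against young they ran from -0.21 to 0.13 (Abcc2), -0.17 to 0.16 (Abcc3) and -0.045 to 0.16 (Nr1h4). For PAM I against young they ran from -0.22 to 0.018 (Slc10a1), -0.089 to 0.085 (Nr1h4) and -0.14 to 0.0049 (Fgfr4). For aged controls against young they ran from -0.069 to 0.19 (Slc10a1), -0.11 to 0.18 (Abcb4), -0.061 to 0.080 (Nr1h4) and -0.0053 to 0.15 (Fgfr4).

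Depth limited Abcc4 most, with as few as 51 fragments in a library; 4 livers a group limit all fold changes.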

Other observations

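The genes running most opposite to the bile acid genes within groups were also looked up, after the values were seen. With group means taken out, over 16 livers and 10726 genes, the lowest Pearson r of Slc10a1 was with the growth factor receptor gene Fgfr1 (-0.97), of Abcb11 with Vim, which encodes the intermediate filament protein vimentin of mesenchymal cells (-0.96), of Abcc2 with Arhgdia (-0.97) and of Klb with Rhog (-0.97). The livers share library, depth and cell content, and no test was made.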
